A study of Mus musculus with 12 samples.

Results

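The genes described here are 10 genes of the unfolded protein response and the integrated stress response, out of 23183 gene symbols measured in mouse kidney cortex by bulk RNA-seq. They were chosen by name, with earlier results of these data known, and all 10 were found in all 12 libraries. Hspa5, Hsp90b1 and Dnajb9 encode chaperones and a co-chaperone of the endoplasmic reticulum (ER), Herpud1 a component of ER-associated degradation, Xbp1, Atf4 and Ddit3 transcription factors, Trib3 a pseudokinase, Asns asparagine synthetase and Chac1 an enzyme that breaks down glutathione.

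The cortex was taken on day 7 after unilateral ureteral obstruction (UUO), an operation that ties off a ureter, so that urine backs up, the tubules are injured and fibrosis follows. The obstructed kidneys (UUO) and the contralateral kidneys of the unoperated side (CL) of Acot12+/+ and Acot12-/- mice gave 4 groups of 3 libraries each, namely Acot12+/+ CL, Acot12+/+ UUO, Acot12-/- CL and Acot12-/- UUO. Acot12 encodes an enzyme that cleaves acetyl-CoA, and Acot12-/- mice carried a mutant allele in every cell through the germline, so an effect of genotype is not limited to a kidney cell type. The mice were male C57BL/6N animals operated on at 6 to 7 weeks of age. The contralateral kidney came from an operated mouse, and no kidney of an unoperated mouse was compared here.

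When unfolded proteins build up in the ER, 3 sensors in its membrane signal to the nucleus. IRE1 (Ern1) splices the messenger RNA of Xbp1, ATF6 is cut to release a transcription factor, and PERK (Eif2ak3) phosphorylates the translation factor eIF2α. The first 2 arms are known for inducing ER chaperones and degradation factors through CCAAT-containing ER stress response elements. Phosphorylation of eIF2α, which kinases sensing other stresses share with PERK, lowers general translation and favours translation of ATF4, which with C/EBP partners induces genes such as Ddit3, Trib3, Asns and Chac1 through C/EBP-ATF response elements. Both XBP1 splicing and ATF4 translation are steps that a gene-level RNA value does not measure. Proximal tubule cells carry a high load of membrane and secreted proteins, and ER stress has long been studied in kidney injury.

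The promoters of the members were read from RefSeq (GRCm38.p6), as the 250 bases before each gene's start, to show which of them carry these elements to the letter. All 10 members matched a promoter. The ER stress response element was searched as CCAAT and CCACG with 9 bases between them, its second form as ATTGG and CCACG with 1 base between them, the unfolded protein response element as TGACGTGG and the core of the C/EBP-ATF response element as TGATGNAA, each on both strands. These were present in 0.113%, 0.0304%, 0.563% and 3.45% of 32851 promoter windows, respectively. CCAAT alone, which every match of the first form contains and which ATTGG of the second form reads on the other strand, was in 33.8% of windows. The stretches below run 5′ to 3′ along the gene's strand, and the capitals mark the match.
Hspa5: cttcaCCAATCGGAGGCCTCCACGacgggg
Hsp90b1, distal: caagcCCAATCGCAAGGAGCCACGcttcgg
Hsp90b1, proximal: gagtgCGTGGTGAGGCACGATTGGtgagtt
Herpud1, second form: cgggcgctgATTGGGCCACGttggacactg
Herpud1, C/EBP-ATF core: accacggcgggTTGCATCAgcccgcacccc
Asns: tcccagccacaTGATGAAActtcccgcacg
Chac1: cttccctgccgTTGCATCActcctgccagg

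The Hspa5 match lay 65 to 47 bases before the RefSeq start, and the stretch is at chr2:34772020-34772049 on the plus strand, inside the longer gene span that GENCODE vM21 gives. For the other genes too, the distances are those of the match and the coordinates in brackets those of the whole printed stretch. Hsp90b1, on the minus strand, held the element 212 to 194 bases before the start (chr10:86705632-86705661) and again, on the opposite strand, 107 to 89 bases before it (chr10:86705527-86705556). Herpud1, on the plus strand, held the second form 52 to 42 bases before the start (chr8:94386368-94386397) and the C/EBP-ATF core, on the opposite strand, 112 to 105 bases before it (chr8:94386306-94386335). Asns, on the minus strand, held the core 23 to 16 bases before the start (chr6:7693214-7693243, inside the GENCODE gene span). Chac1, on the plus strand, held it on the opposite strand 193 to 186 bases before the start (chr2:119351038-119351067). The windows of Dnajb9, Xbp1, Atf4, Ddit3 and Trib3 held none of the 4 elements spelled this way. A match describes the letters of the window and is not a measurement of binding.

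Values are FPKM, fragments per kilobase of transcript divided by a library-size term, so that levels can be compared between genes per length. As deposited they were near a common scale between libraries, with median-ratio size factors of 0.976 to 1.02. Whether the library-size term is the sequenced depth or was adjusted between libraries is not given in the sources used here. The divisor recovered from the steps in the low values was 12400000 to 16300000 fragments in CL and 18600000 to 23000000 in UUO libraries. It need not be the number of fragments sequenced. Contralateral kidneys had 73.8, 52.7 and 78.1 FPKM of Acot12 in Acot12+/+ and 9.14, 9.01 and 6.80 in Acot12-/- mice, and obstructed kidneys 9.98, 16.7 and 21.2 and 3.28, 1.80 and 3.86, respectively. Every Acot12-/- library was thus below every Acot12+/+ library of the same kidney, and Acot12 RNA was still present. Acot12-/- CL replicate 2 stood apart from the other 2 libraries of its group on the second principal component (−52.3 against 22.2 and 33.0, 9.46% of the variance), so the log2 changes of the tested members that rest on that group are also given without it, as are those of some of the other genes named.

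Markers of the cells in the cortex moved with obstruction. The summed FPKM of 7 proximal tubule markers went from 1041 to 1667 (CL) to 231 to 465 (UUO) in Acot12+/+ mice, and from 1533 to 3049 (CL) to 127 to 627 (UUO) in Acot12-/- mice. That of 5 injured tubule markers was 888 to 2812, 14561 to 16040, 1547 to 4912 and 15908 to 17269 in the same order, and that of 7 macrophage markers 130 to 151, 555 to 665, 48.7 to 102 and 599 to 764. For 7 fibroblast markers the sums were 136 to 177, 340 to 499, 46.9 to 108 and 338 to 480. Plasma and B cell markers summed to 10.7 to 11.6, 31.0 to 36.7, 8.04 to 12.6 and 43.3 to 80.8. None of these sums overlapped between the CL and UUO kidneys of a genotype. Called with obstruction were 6 of 7 proximal tubule markers (Acot12+/+) and 7 of 7 (Acot12-/-), all lower, and all 5 injured tubule markers, 6 and 7 of 7 macrophage markers, 6 and 7 of 7 fibroblast markers and 2 and 4 of the 4 plasma and B cell markers tested, all higher. Their part in the results below was not tested, and in whole cortex fewer cells of a type and less RNA per cell cannot be told apart.

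In both genotypes the ER chaperone Hspa5 and the degradation component Herpud1 were lower in UUO than in CL kidneys on the scale of the deposited values, while Asns and Trib3 rose several-fold. The transcription factors Xbp1 and Atf4 passed in neither genotype, and Hsp90b1, Dnajb9 and Ddit3 in a single one. Of the 9 members tested, 5 passed in Acot12+/+ kidneys (2 higher and 3 lower), where 47.5% of all 13243 genes tested passed, 23.6% higher and 23.9% lower. In Acot12-/- kidneys 6 passed (3 higher and 3 lower), against 53.7% of all genes, 26.6% higher and 27.2% lower. The share of members that changed was therefore near that among all genes. Tests were made with limma on log2(FPKM + 1), which understates changes at low FPKM, and p was adjusted over all genes tested. Chac1 was not tested because fewer than 3 libraries reached 1 FPKM, and Trib3 passed this filter only through its UUO libraries.

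**Figure D1:**
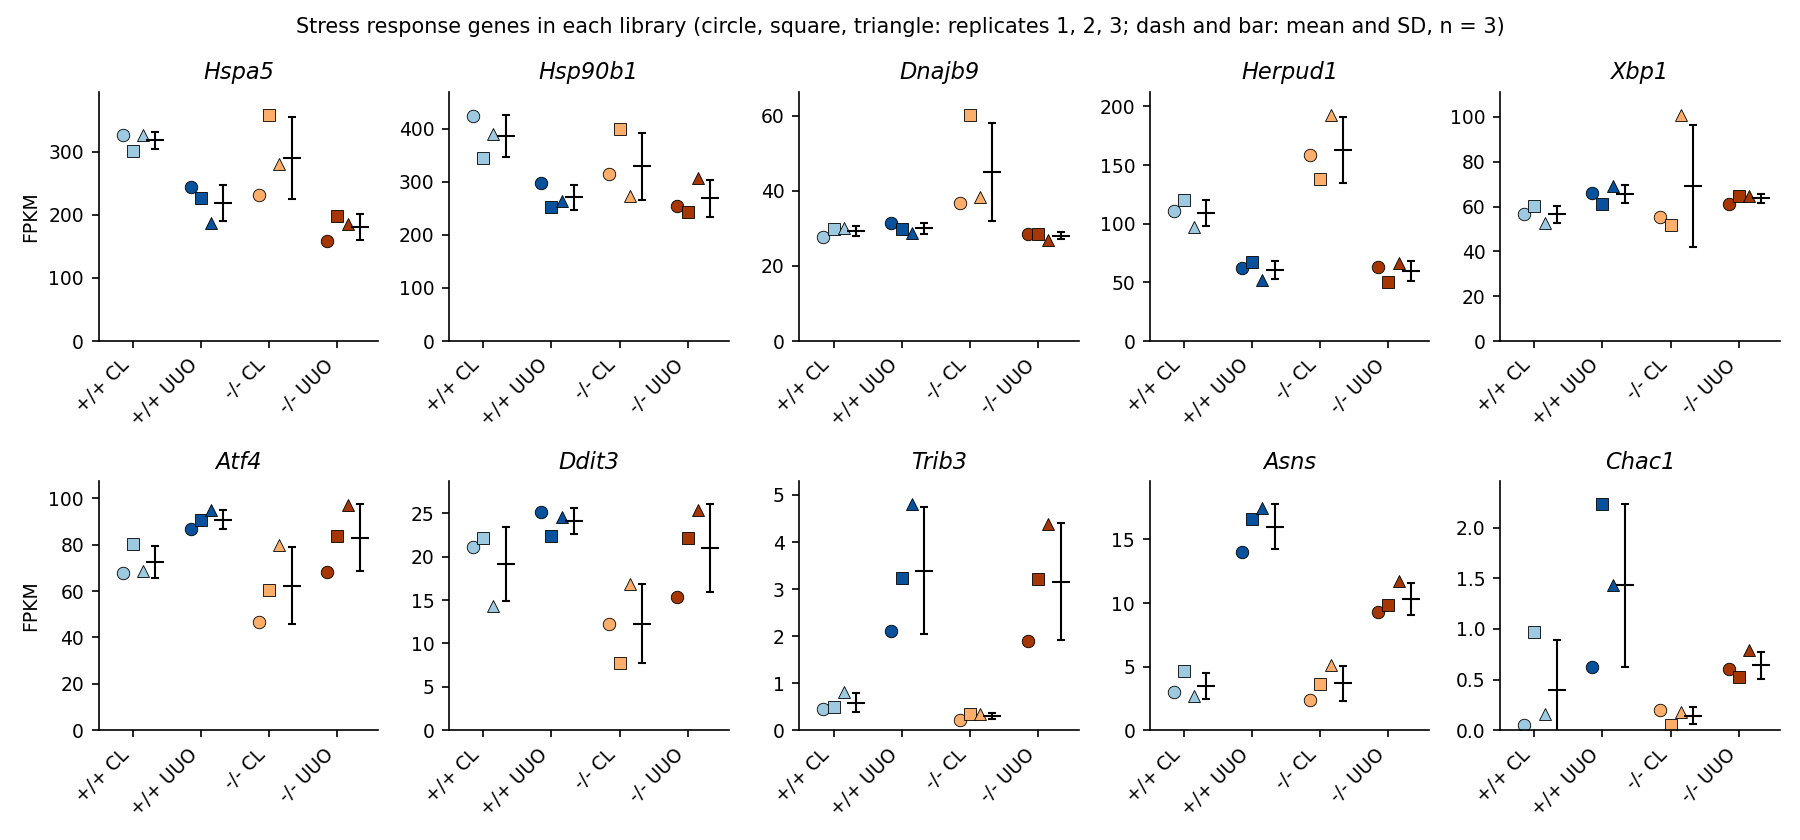
FPKM (linear axis from 0) of each member in the 12 libraries, with a panel per gene, a column per group, circles, squares and triangles for replicates 1, 2 and 3, and a dash with a bar for the mean ± SD (n = 3). Herpud1 lies between 97.4 and 193 FPKM in the CL libraries and between 50.1 and 67.3 in the UUO libraries, Asns between 2.36 and 5.12 in CL and between 9.32 and 17.5 in UUO, and Dnajb9 and Xbp1 each have a single high library among the Acot12-/- CL kidneys.

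Hspa5 encodes BiP, the ER chaperone of the HSP70 family that also holds the sensors inactive. In Acot12+/+ mice the contralateral kidneys had 326, 302 and 327 FPKM, the obstructed kidneys 244, 227 and 187. In Acot12-/- mice the contralateral kidneys had 231, 359 and 280, the obstructed kidneys 158, 199 and 185. In each genotype every UUO library was below every CL library. From CL to UUO the log2 fold change was −0.54 (SE 0.19, limma adjusted p = 0.0312) in Acot12+/+ and −0.66 (SE 0.19, adjusted p = 0.0102) in Acot12-/- kidneys, and −0.50 (adjusted p = 0.0181) in the latter without Acot12-/- CL replicate 2. The Acot12+/+ call was lost when any of 5 of the 6 libraries compared was left out, Acot12+/+ UUO replicate 1 being the exception (adjusted p 0.0436 to 0.122 over the 6).

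Hsp90b1 encodes GRP94, the HSP90 chaperone of the ER. The contralateral kidneys of Acot12+/+ mice had 424, 345 and 391 FPKM, their obstructed kidneys 298, 253 and 263. Those of Acot12-/- mice had 314, 399 and 273, their obstructed kidneys 254, 244 and 308. The groups did not overlap in Acot12+/+ mice, whereas in Acot12-/- mice UUO replicate 3 was above CL replicate 3. The log2 fold change was −0.51 (SE 0.18, adjusted p = 0.0346) in Acot12+/+ kidneys. In Acot12-/- kidneys it was −0.28 (SE 0.18, adjusted p = 0.211), with a 95% interval of −0.67 to 0.11 that includes the Acot12+/+ estimate, and −0.13 (adjusted p = 0.476) without Acot12-/- CL replicate 2. The Acot12+/+ call was lost without any of its libraries except CL replicate 2 (adjusted p 0.0423 to 0.123).

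The direction of these chaperone changes rests on the scale of the values. When every library was scaled to the same total FPKM, the median of all genes moved by 0.61 in Acot12+/+ and 0.46 in Acot12-/- kidneys on the log2 scale. On that scale Hspa5 had a log2 fold change of 0.19 and Hsp90b1 of 0.22 in Acot12+/+ kidneys, which is 0.43 and 0.39 below the median gene. In Acot12-/- kidneys Hspa5 was at −0.12, 0.56 below the median gene, and Hsp90b1 at 0.27, 0.18 below it. The total is set in part by a few genes, of which the highest took 2.65% to 19.4% of a library.

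Herpud1 encodes an ER membrane protein of the degradation complex that removes misfolded proteins. The CL values were 111, 120 and 97.4 FPKM in Acot12+/+ and 159, 138 and 193 in Acot12-/- kidneys, and the UUO values 62.1, 67.3 and 52.3 and 62.8, 50.1 and 66.2. The UUO kidneys of both genotypes lay in the same range, well below all CL kidneys, and the CL kidneys of Acot12-/- mice were the highest. From CL to UUO the log2 fold change was −0.84 (SE 0.18, adjusted p = 0.00217) in Acot12+/+ and −1.43 (SE 0.18, adjusted p = 3.98e-05) in Acot12-/- kidneys, where it was −1.55 without CL replicate 2. Both calls were kept without any single library. Scaled to equal totals, the change was −0.12 (adjusted p = 0.584) in Acot12+/+, 0.74 below the median gene, and −0.89 in Acot12-/- kidneys, where it still passed.

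Dnajb9 encodes ERdj4, a J-domain co-chaperone of BiP. Acot12+/+ mice had 27.6, 29.9 and 30 FPKM on the contralateral and 31.5, 29.8 and 28.8 on the obstructed side, all between 27.6 and 31.5. Acot12-/- mice had 36.7, 60.3 and 38.4 on the contralateral and 28.5, 28.5 and 26.9 on the obstructed side. The Acot12-/- CL libraries were above the other 9 libraries, with replicate 2 highest. The log2 fold change with obstruction was 0.04 (95% interval −0.34 to 0.42, adjusted p = 0.864) in Acot12+/+ and −0.63 (SE 0.17, adjusted p = 0.00849) in Acot12-/- kidneys, and −0.41 (adjusted p = 0.00273) without Acot12-/- CL replicate 2. Scaled to equal totals, these were 0.75 and −0.10, or 0.13 above and 0.55 below the median gene.

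Xbp1 encodes the transcription factor of the IRE1 arm, and the FPKM of the gene add up its spliced and unspliced messenger RNA. Contralateral kidneys of Acot12+/+ mice measured 56.5, 60.3 and 52.8 FPKM, obstructed ones 66.1, 61.1 and 69.2. Contralateral kidneys of Acot12-/- mice measured 55.4, 51.7 and 101, obstructed ones 61.3, 64.7 and 64.9. Acot12-/- CL replicate 3 was far above the other 11 libraries, which lay between 51.7 and 69.2. The change with obstruction was 0.21 (95% interval −0.26 to 0.67, adjusted p = 0.443) in Acot12+/+, with every UUO library above every CL library, and −0.05 (−0.52 to 0.41, adjusted p = 0.848) in Acot12-/- kidneys. Without Acot12-/- CL replicate 3 the latter was 0.24 (adjusted p = 0.138), and without replicate 2 of that group −0.23 (adjusted p = 0.33). On equal totals the changes were 0.93 and 0.49, or 0.31 and 0.04 above the median gene.

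Atf4 encodes the transcription factor whose translation rises when eIF2α is phosphorylated. Its RNA in Acot12+/+ mice was at 68.0, 80.4 and 68.7 FPKM on the contralateral and at 86.7, 90.5 and 94.9 on the obstructed side. In Acot12-/- mice it was at 46.7, 60.6 and 79.7 on the contralateral and at 68.2, 83.9 and 97.1 on the obstructed side. In Acot12+/+ mice no UUO library overlapped a CL library, and in Acot12-/- mice replicate 1 was low and replicate 3 high in both kidneys. The log2 fold change was 0.32 (95% interval −0.11 to 0.75, adjusted p = 0.195) and 0.43 (−0.0023 to 0.86, adjusted p = 0.0864). With the replicate number as a block, the Acot12-/- change had an adjusted p of 0.0227 and was called, as it was without Acot12-/- CL replicate 3 (0.62, adjusted p = 0.014). Without Acot12-/- CL replicate 2 it was 0.42 (adjusted p = 0.0996). On equal totals the changes were 1.05 and 0.97, or 0.43 and 0.52 above the median gene, and both were called.

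Ddit3 encodes CHOP, a C/EBP-family factor induced by ATF4 and known for its role in cell death under stress. The annotation holds 2 overlapping genes of this symbol, and how reads between them were counted is not given in the sources used here. Acot12+/+ mice had 21.1, 22.2 and 14.3 FPKM in their contralateral kidneys, then 25.2, 22.4 and 24.6 in the obstructed ones. Acot12-/- mice had 12.2, 7.71 and 16.8 in their contralateral kidneys, then 15.4, 22.2 and 25.4 in the obstructed ones. UUO libraries were higher than CL libraries without overlap in Acot12+/+ mice, if only just, and overlapped them in Acot12-/- mice. The log2 fold change was 0.33 (95% interval −0.23 to 0.90, adjusted p = 0.314) in Acot12+/+ and 0.76 (SE 0.26, adjusted p = 0.0266) in Acot12-/- kidneys. On equal totals Ddit3 changed by 1.04 in Acot12+/+ kidneys and was called. The Acot12-/- change was 0.49 (adjusted p = 0.0808) without Acot12-/- CL replicate 2, and was not called either without Acot12-/- UUO replicate 2 (adjusted p = 0.0787) or 3 (adjusted p = 0.102).

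Asns, which makes asparagine from aspartate and is a standard ATF4 target, rose in both genotypes. On the contralateral side it measured 2.99, 4.63 and 2.73 FPKM in Acot12+/+ mice, against 2.36, 3.6 and 5.12 in Acot12-/- mice. On the obstructed side it measured 14.0, 16.6 and 17.5 in Acot12+/+ mice, against 9.32, 9.86 and 11.7 in Acot12-/- mice. Every UUO library exceeded every CL library of either genotype. The ratio of group means was 4.65 in Acot12+/+ and 2.79 in Acot12-/- kidneys, and the log2 fold change 1.96 (SE 0.22, adjusted p = 3.89e-05) and 1.30 (SE 0.22, adjusted p = 0.000352). Without Acot12-/- CL replicate 2 the latter was 1.31. The rise was called in both genotypes without any single library and on equal totals.

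Trib3, a pseudokinase induced by ATF4 and CHOP that restrains AKT signaling and ATF4 itself, was low in all kidneys. CL values were 0.451, 0.489 and 0.823 FPKM in Acot12+/+ and 0.22, 0.34 and 0.338 in Acot12-/- mice. UUO values were 2.11, 3.24 and 4.81 in Acot12+/+ and 1.89, 3.21 and 4.38 in Acot12-/- mice. In both genotypes UUO kidneys were above CL kidneys in every library. The ratio of group means was 5.76 and 10.6, and the log2 fold change, which the added 1 FPKM compresses here, was 1.43 (SE 0.24, adjusted p = 0.000552) and 1.63 (SE 0.24, adjusted p = 0.000149). The Acot12-/- value was 1.66 without CL replicate 2. Both calls were kept without any single library and on equal totals.

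Chac1 was the lowest member. Contralateral kidneys had 0.056, 0.969 and 0.159 FPKM (Acot12+/+) and 0.199, 0.051 and 0.184 (Acot12-/-). Obstructed kidneys had 0.621, 2.23 and 1.43 (Acot12+/+) and 0.605, 0.526 and 0.788 (Acot12-/-). The Acot12-/- groups did not overlap, and Acot12+/+ CL replicate 2 was above Acot12+/+ UUO replicate 1. A single fragment on 1 kb of effective length corresponds to 0.0435 to 0.0807 FPKM, so the lowest Chac1 values rest on very few fragments. When no filter on low values was used, its log2 fold change was 0.80 (SE 0.26, adjusted p = 0.0334) in Acot12+/+ and 0.52 (SE 0.26, adjusted p = 0.136) in Acot12-/- kidneys.

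**Figure D2:**
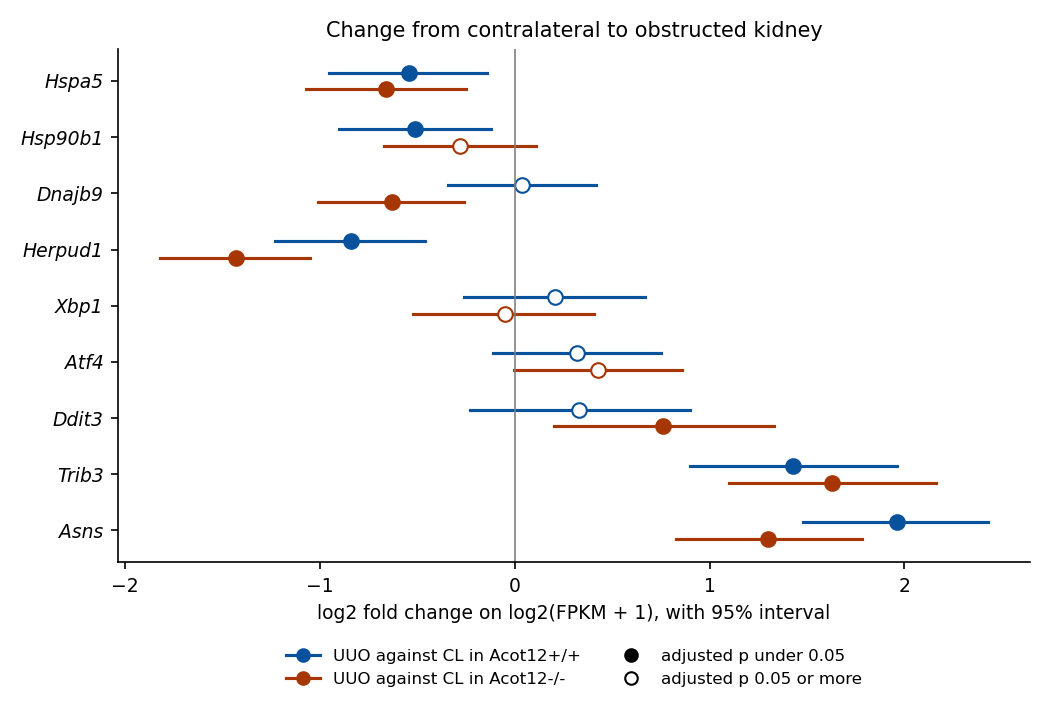
Log2 fold change from CL to UUO on log2(FPKM + 1) with its 95% interval (horizontal axis) for the 9 members tested (rows), in Acot12+/+ (blue) and Acot12-/- kidneys (brown), filled where the limma adjusted p was under 0.05. Herpud1 lies at −0.84 and −1.43, Hspa5 at −0.54 and −0.66, and Trib3 and Asns between 1.30 and 1.96, with Xbp1 and Atf4 open in both genotypes. On equal totals Hspa5 and Hsp90b1 in Acot12+/+ and Hsp90b1 and Xbp1 in Acot12-/- kidneys change sign.

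Groups without overlap between UUO and CL counted 5 members higher (Xbp1, Atf4, Ddit3, Trib3 and Asns) and 3 lower (Hspa5, Hsp90b1 and Herpud1) in Acot12+/+ mice, where 35.5% and 35.8% of all genes tested were so separated. In Acot12-/- mice 3 were higher (Trib3, Asns and Chac1) and 3 lower (Hspa5, Dnajb9 and Herpud1), against 27.8% and 27.6%. Chac1, whose values were low, was not among the genes tested over which these shares were taken.

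Kidneys of the same replicate number deviated together weakly within a genotype (correlations of 0.13 to 0.36). This does not establish that they came from the same mouse. The ratio of the UUO to the CL kidney of the same number was also taken. For Herpud1 these ratios were 0.561, 0.561 and 0.536 in Acot12+/+ and 0.394, 0.364 and 0.343 in Acot12-/- mice, a narrow spread in each genotype. For Hspa5 they were 0.749, 0.752 and 0.573, and 0.686, 0.555 and 0.660. For Atf4 they were 1.27, 1.13 and 1.38, and 1.46, 1.39 and 1.22. All 6 pairs thus fell for Herpud1 and Hspa5 and rose for Atf4, by less than the fall of Herpud1 when both are taken on a log scale. All ratios here are on the scale of the deposited values. On equal totals the log2 fold change of Hspa5 in Acot12+/+ kidneys was 0.19, so the direction of its ratios rests on that scale. The share of all genes that moved in the same direction in all 6 pairs was not counted. The ratios of Trib3 were 4.68, 6.63 and 5.84 in Acot12+/+ and 8.58, 9.44 and 13.0 in Acot12-/- mice, and those of Asns 4.69, 3.59 and 6.40, and 3.94, 2.74 and 2.29. Hsp90b1 fell in 5 of 6 pairs, Acot12-/- pair 3 being at 1.13, and Xbp1 rose in 5 of 6, that pair being at 0.645. Chac1 and Ddit3 rose in all 6 pairs, Ddit3 by as little as 1.01 in Acot12+/+ pair 2, and Dnajb9 rose in a single pair (1.14, Acot12+/+ pair 1).

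**Figure D3:**
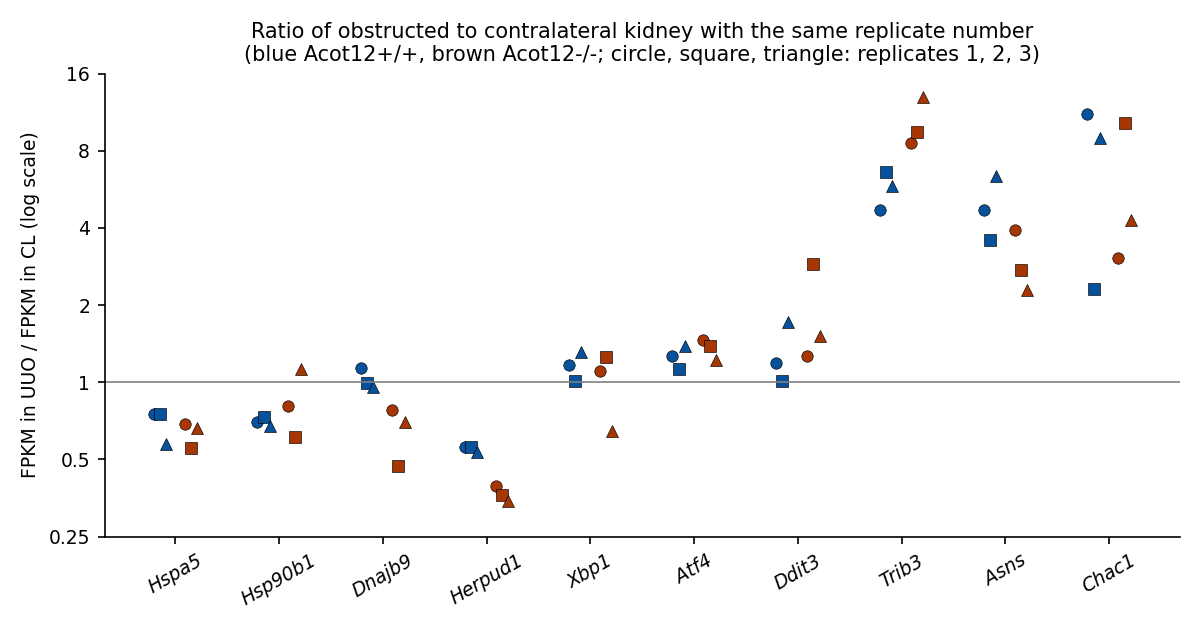
Ratio of FPKM in the UUO kidney to FPKM in the CL kidney of the same replicate number (log scale, 1 meaning no difference) for each member, in Acot12+/+ (blue) and Acot12-/- mice (brown). The 6 Herpud1 ratios lie between 0.343 and 0.561, the 6 Trib3 ratios between 4.68 and 13.0 and the 6 Asns ratios between 2.29 and 6.40, while Xbp1 lies near 1 with Acot12-/- pair 3 at 0.645.

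Between genotypes no member was called. In UUO kidneys, 0 of 9 members passed limma, as did 0.0151% of all genes, and 1 had an unadjusted p under 0.05, against 2.36% of all genes. That member was Asns, at 16 ± 1.79 FPKM in Acot12+/+ and 10.3 ± 1.26 in Acot12-/- kidneys (SD, n = 3). All 3 Acot12-/- libraries were below the Acot12+/+ libraries. The log2 difference was −0.59 (SE 0.22, 95% interval −1.07 to −0.12, limma adjusted p = 1). Dnajb9 also did not overlap, with a difference of −0.10 (−0.47 to 0.28). Groups without overlap in UUO kidneys made up 6.48% of all genes on the lower side. For the other members the differences lay between −0.28 (Hspa5, interval −0.68 to 0.13) and −0.02 (Hsp90b1, −0.41 to 0.37, and Herpud1, −0.41 to 0.36), so that changes of up to about 0.4 either way are not excluded by these libraries for the latter pair.

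In CL kidneys 0 of 9 members passed, against 4.48% of all genes, and 3 had an unadjusted limma p under 0.05, against 17.3% of all genes. Herpud1 was 109 ± 11.3 FPKM in Acot12+/+ and 163 ± 27.9 in Acot12-/- kidneys (SD, n = 3), a log2 difference of 0.57 (SE 0.18, limma adjusted p = 0.102). Dnajb9 was 29.2 ± 1.33 and 45.1 ± 13.1, a difference of 0.58 (SE 0.17, limma adjusted p = 0.0885). Every Acot12-/- library was above every Acot12+/+ library for these 2 genes, a separation found in 8.6% of all genes. Without Acot12-/- CL replicate 2, whose own Dnajb9 value was the highest, both were called, Dnajb9 at 0.35 (adjusted p = 0.0229) and Herpud1 at 0.68 (adjusted p = 0.0168). That fit called 2923 of all 13243 genes, against 593 with all libraries, so 2 of 9 members is near the share of all genes.

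Markers of other cell types also differed between the genotypes in CL kidneys. Endothelial markers summed to 72.4 to 127 FPKM in Acot12+/+ and 22.5 to 45.4 in Acot12-/- CL kidneys, and T cell markers to 7.22 to 13.2 and 2.29 to 3.81. These sums did not overlap, nor did those of the macrophage and fibroblast markers given above. Called lower in Acot12-/- CL kidneys were 3 of 4 endothelial, 3 of 5 T cell, 3 of 7 macrophage and 2 of 7 fibroblast markers, and none of the 7 proximal tubule markers was called. Their part in the genotype differences of members and list genes was not tested.

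Ddit3 did not pass in CL kidneys, at 19.2 ± 4.25 FPKM in Acot12+/+ and 12.3 ± 4.56 in Acot12-/- mice (SD, n = 3). The libraries overlapped, and the log2 difference was −0.64 (SE 0.26, limma adjusted p = 0.22), or −0.37 (adjusted p = 0.261) without Acot12-/- CL replicate 2. Trib3 was lower in all 3 Acot12-/- CL libraries, at 0.299 ± 0.0687 against 0.588 ± 0.205 FPKM (log2 difference −0.28, adjusted p = 0.633, or −0.31 without replicate 2), where 9.73% of all genes were separated in this direction. Asns, in contrast to the UUO kidneys, differed by 0.06 (95% interval −0.42 to 0.54), or 0.05 without replicate 2.

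**Figure D4:**
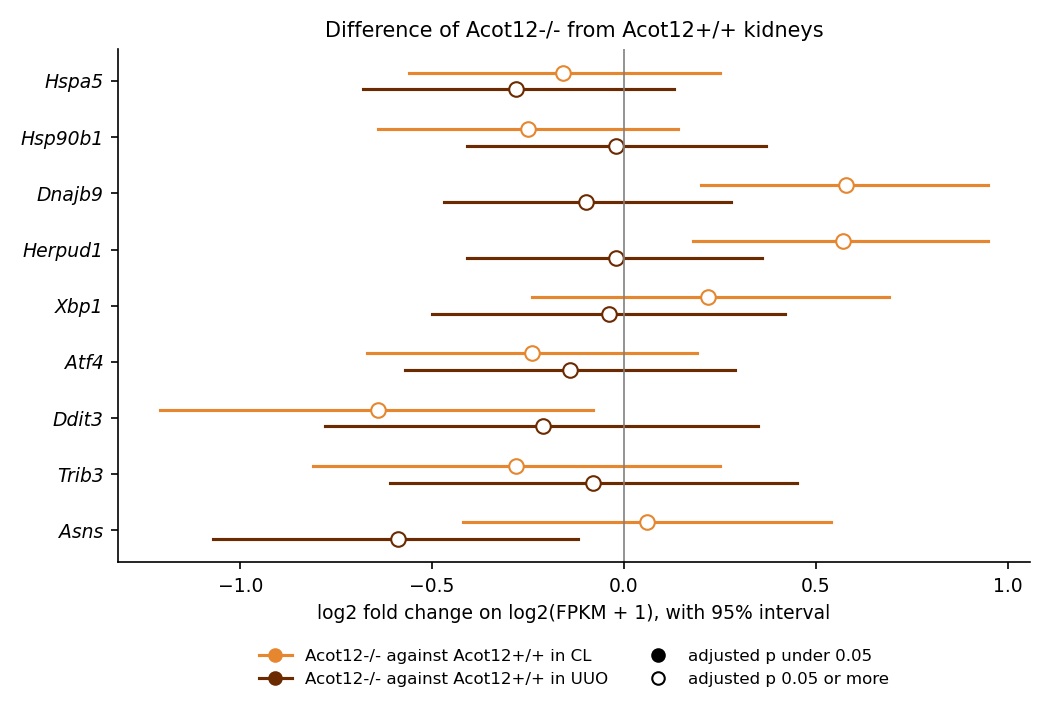
Log2 difference of Acot12-/- from Acot12+/+ kidneys on log2(FPKM + 1) with its 95% interval (horizontal axis) for the 9 members tested (rows), in CL (light) and UUO kidneys (dark). All symbols are open, since no limma adjusted p was under 0.05. The intervals of Dnajb9, Herpud1 and Ddit3 in CL and of Asns in UUO kidneys do not reach 0.

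The test of whether obstruction changed a member differently in the 2 genotypes called 0 of 9, against 0.106% of all genes, and 2 had an unadjusted limma p under 0.05, against 10.5% of all genes. The log2 change of Acot12-/- kidneys minus that of Acot12+/+ kidneys was −0.67 for Dnajb9 (SE 0.25, limma adjusted p = 0.314) and −0.59 for Herpud1 (SE 0.25, adjusted p = 0.437). Without Acot12-/- CL replicate 2 the values were −0.45 (adjusted p = 0.0547) and −0.71 (adjusted p = 0.0763). The Asns term was −0.65 (SE 0.31, 95% interval −1.33 to 0.02, adjusted p = 0.5), and −0.64 without that library. The calls of Hsp90b1, Dnajb9 and Ddit3 in a single genotype are therefore not shown to differ between genotypes. The UUO and genotype comparisons share their libraries, so a high Herpud1 or Dnajb9 in Acot12-/- CL kidneys enters the CL difference, the Acot12-/- change with UUO and this term alike.

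Other genes of the pathways were taken as 9 lists of 145 genes, all in the files, of which 142 were tested. Their counts stand beside the 23.6% of all genes called higher and 23.9% lower in Acot12+/+, and 26.6% and 27.2% in Acot12-/- kidneys. The lists were chosen with earlier results of these data known, and no list was tested against other genes. Among 21 other ER chaperones and folding enzymes, none rose, 4 fell in Acot12+/+ and 9 fell in Acot12-/- kidneys, with a median log2 fold change of −0.18 and −0.37 beside 0.01 and −0.01 over all genes. The 4 of 21 in Acot12+/+ kidneys are a smaller share than that of all genes called lower there. Dnajc3, the BiP co-chaperone p58IPK, went from 43.9 ± 5.05 to 22.3 ± 2.54 FPKM (SD, n = 3) in Acot12+/+ kidneys (−0.95, SE 0.20, limma adjusted p = 0.00215), and was at −1.07 (adjusted p = 0.00072) in Acot12-/- kidneys. Dnajb11, another ER J-domain protein, fell by 0.60 (adjusted p = 0.00199) and 0.89 (adjusted p = 9.11e-05). Among 18 degradation genes none rose, and 4 and 7 fell (medians −0.13 and −0.36), the 4 again being a smaller share than among all genes. Edem1, which hands misfolded glycoproteins over for degradation, went from 19.7 ± 3.48 to 11.1 ± 0.494 FPKM in Acot12+/+ kidneys (−0.77, adjusted p = 0.000688) and changed by −0.88 in Acot12-/- kidneys, and the ER lectin Erlec1 by −0.62 and −0.88. As with Hspa5, the direction in Acot12+/+ kidneys rests on the scale for Dnajb11 (0.12 on equal totals) and Erlec1 (0.08). The calls of Dnajc3 (−0.24, adjusted p = 0.381) and Edem1 (−0.08, adjusted p = 0.713) were lost there, as were those of all 4 genes in Acot12-/- kidneys (adjusted p 0.0592 to 0.143). On equal totals 10 of the 21 chaperones and 10 of the 18 degradation genes were called higher in Acot12+/+ kidneys. Both are a smaller share than the 7424 of 13243 among all genes, and the medians of both lists were 0.15 below the median gene.

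Among 23 genes of translocation and secretory transport, 1 rose and 8 fell in Acot12+/+, and 1 rose and 9 fell in Acot12-/- kidneys (medians −0.13 and −0.25). Sec61g, a subunit of the translocon, went from 307 ± 6.27 to 107 ± 6.10 FPKM in Acot12+/+ kidneys (−1.52, limma adjusted p = 0.00017) and changed by −0.68 in Acot12-/- kidneys, and Sec62 changed by −1.10 and −0.86. Without Acot12-/- CL replicate 2 the Acot12-/- values were −0.48 and −0.52. On equal totals the Acot12-/- call of Sec61g (−0.13) and both calls of Sec62 (−0.37 and −0.31) were lost, as was the Acot12-/- call of Sec61g without UUO replicate 1 or 2 (adjusted p = 0.0823 and 0.0551) and of Sec62 without UUO replicate 2 (adjusted p = 0.067). The gene that rose was Kdelr3, a receptor that returns chaperones from the Golgi to the ER, from 3.61 ± 0.833 to 11.6 ± 0.657 FPKM in Acot12+/+ (1.46, adjusted p = 0.000107) and from 1.46 ± 0.377 to 9.86 ± 2.46 in Acot12-/- kidneys (2.13, adjusted p = 5.54e-06). Of 17 sensors, kinases and phosphatase subunits, 3 rose and 1 fell in Acot12+/+, and 1 rose and 4 fell in Acot12-/- kidneys. Eif2ak3, the PERK kinase, rose by 0.76 (SE 0.13, adjusted p = 0.000646) in Acot12+/+ and was at 0.29 (adjusted p = 0.0858) in Acot12-/- kidneys. Ppp1r15a, the stress-induced subunit that directs dephosphorylation of eIF2α, rose by 0.83 in both (adjusted p = 0.00573 and 0.0048), or by 0.60 in Acot12-/- kidneys without CL replicate 2, whereas Eif2s1, eIF2α itself, changed by −0.52 and −0.59, and by 0.18 and −0.06 on equal totals, where neither was called lower. Its Acot12+/+ call was also lost without any of its libraries except CL replicate 3 (adjusted p 0.0518 to 0.0843 in the fits that lost it).

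The transcription factors and effectors of the integrated stress response went mostly up. Of 17 tested, 12 rose and 2 fell in Acot12+/+, and 13 rose and 2 fell in Acot12-/- kidneys, with medians of 1.17 and 1.53. Like the other lists, this one was chosen with earlier results known, so its counts are a description and not a test. With each of the 6 libraries left out in turn, the Acot12+/+ call was lost in 5 fits for Cebpb and 4 for Ddit4. Atf3, a factor induced by ATF4, went from 1.58 ± 0.688 to 12.2 ± 0.440 FPKM (SD, n = 3) in Acot12+/+ kidneys (2.38, limma adjusted p = 1.65e-05) and from 0.646 ± 0.489 to 9.61 ± 1.86 in Acot12-/- kidneys (2.71, adjusted p = 3.1e-06). Stc2, a secreted glycoprotein, rose by 2.44 and 2.43. The genes that fell were Vldlr, a lipoprotein receptor (−1.14 and −1.28), and Vegfa, the angiogenic growth factor (−0.60 and −0.58, and 0.11 and −0.05 on equal totals). The Acot12+/+ call of Vldlr was lost on that scale too (−0.49, adjusted p = 0.096). On equal totals 15 and 14 of the list were called higher, where 7424 and 6077 of all 13243 genes were.

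Genes of amino acid synthesis and transport moved in both directions. Of 14 tested, 8 rose and 3 fell in Acot12+/+, and 6 rose and 5 fell in Acot12-/- kidneys (medians 0.82 and 0.55). Phgdh, the first enzyme of serine synthesis, went from 8.15 ± 3.27 to 29.4 ± 4.89 FPKM (SD, n = 3) in Acot12+/+ kidneys (1.79, limma adjusted p = 0.000668) and rose by 1.21 in Acot12-/- kidneys, or 0.84 without CL replicate 2. Aldh18a1, of proline synthesis, rose by 1.52 and 1.47. Cth, which makes cysteine, fell from 140 ± 36.7 to 30.9 ± 10 FPKM in Acot12+/+ kidneys (−2.15, adjusted p = 0.000229) and changed by −2.37 in Acot12-/- kidneys, and Shmt2, the mitochondrial serine hydroxymethyltransferase, by −1.35 and −1.70, the former not being called on equal totals (−0.64, adjusted p = 0.114). Among 12 cytosolic aminoacyl-tRNA synthetases, 2 rose in Acot12+/+ kidneys, Iars (0.50) and Lars (0.38), and 1 fell in Acot12-/- kidneys, where Iars was at −0.07 (adjusted p = 0.625), or 0.44 on equal totals. The Acot12+/+ call of Lars was lost without any of its libraries except CL replicate 2 (adjusted p 0.0502 to 0.0985 in the fits that lost it), and Lars was called in Acot12-/- kidneys without CL replicate 2 (0.33, adjusted p = 0.0101).

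For comparison, stress response genes outside the ER were counted in the same way. Of 8 mitochondrial chaperones and proteases, none rose and 6 fell in each genotype (medians −0.95 and −1.21). On equal totals the Acot12+/+ calls of Hspa9, Dnaja3, Trap1 and Yme1l1 were lost (limma adjusted p 0.0869 to 0.583). So was the Acot12-/- call of Yme1l1 (adjusted p = 0.349), while the other falls of this list were still called. Hspd1, mitochondrial HSP60, went from 411 ± 56.3 to 148 ± 10.5 FPKM (SD, n = 3) in Acot12+/+ kidneys (−1.46, limma adjusted p = 0.000225) and changed by −1.81 in Acot12-/- kidneys, and its partner Hspe1 by −1.70 and −1.48. Of 12 cytosolic heat shock genes, 3 rose and 4 fell in Acot12+/+, and 4 rose and 4 fell in Acot12-/- kidneys (medians 0.33 and 0.18, the latter −0.13 without Acot12-/- CL replicate 2). The small heat shock protein Hspb1 rose from 17.6 ± 1.62 to 407 ± 25.6 FPKM in Acot12+/+ and from 9.34 ± 5.98 to 305 ± 27.0 in Acot12-/- kidneys (4.45 and 5.06, adjusted p = 2.43e-06 and 4.86e-07), and Hspb8 by 2.01 and 2.43. Hsp90aa1, cytosolic HSP90, changed by −1.17 and −0.64, and the co-chaperone Dnaja1 by −1.18 and −1.05. On equal totals none of these 4 calls was kept, at −0.43 and −0.09 for Hsp90aa1 (adjusted p = 0.0817 and 0.717) and −0.46 and −0.51 for Dnaja1 (adjusted p = 0.0996 and 0.0775).

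**Figure D5:**
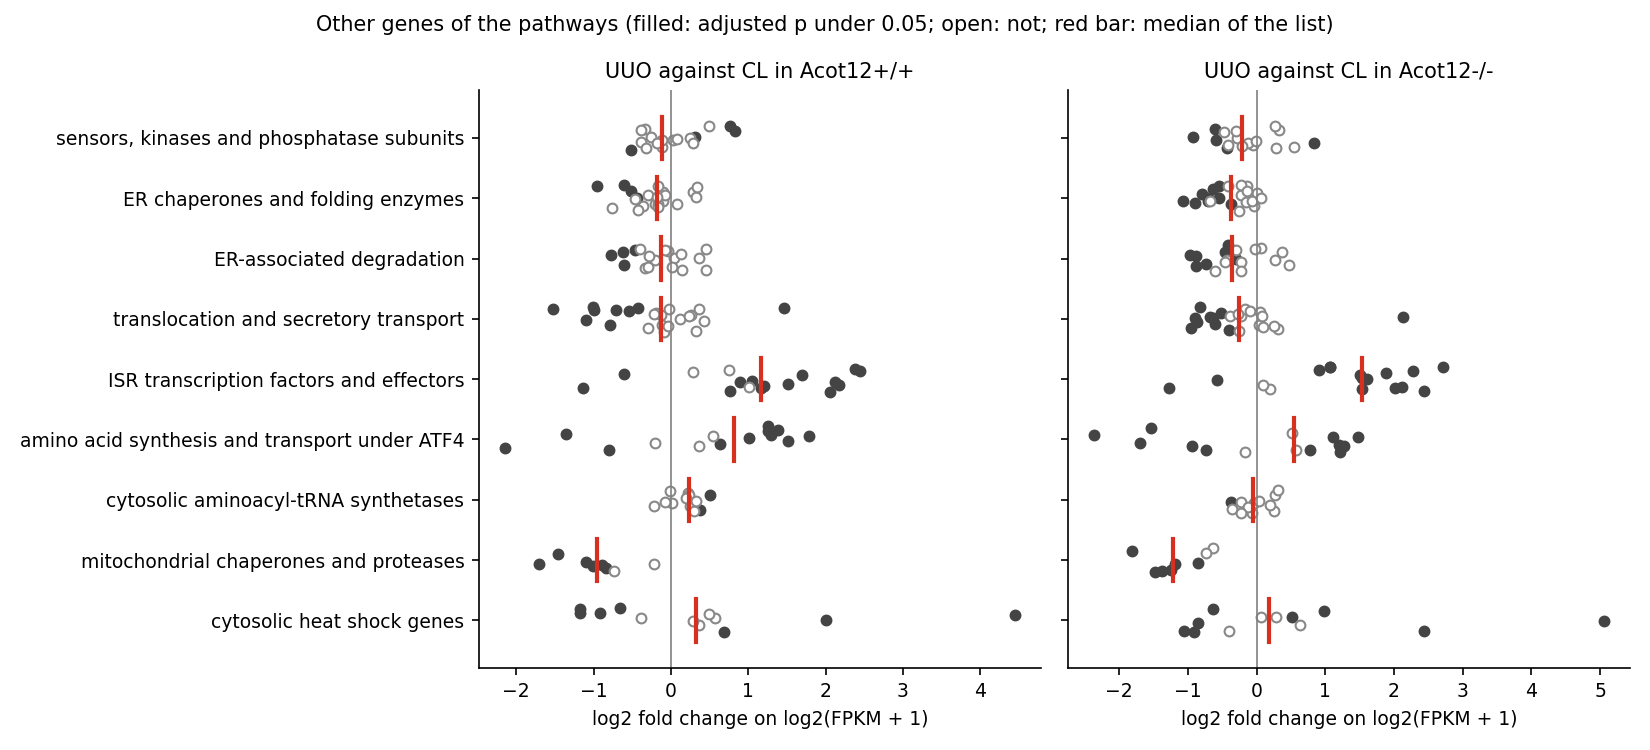
Log2 fold change from CL to UUO on log2(FPKM + 1) (horizontal axes) of each tested gene of the 9 lists (rows), in Acot12+/+ (left) and Acot12-/- kidneys (right), filled where the limma adjusted p was under 0.05, with the list's median as a red bar. The medians of the integrated stress response list lie at 1.17 and 1.53, those of ER chaperones at −0.18 and −0.37 and those of mitochondrial chaperones at −0.95 and −1.21, while on equal totals the ER chaperone medians lie at 0.47 and 0.13.

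Where 5 or fewer genes of a list passed in one direction, those not yet named are given here, chosen after their values were seen, with log2 fold changes on log2(FPKM + 1). In Acot12+/+ kidneys they included the prolyl isomerase Ppib (−0.44) and the oxidase Ero1l (−0.51) among the chaperones, Derl1 (−0.60) among the degradation genes, the amino acid-sensing eIF2α kinase Eif2ak4 (0.31), Psat1 of serine synthesis (−0.80), and Bag3 (0.69), Hspa8 (−0.66) and Hsph1 (−0.92) among the heat shock genes. In Acot12-/- kidneys they were Eif2ak1 (−0.92), Ppp1r15b (−0.61) and Eif2b1 (−0.43) among the regulators of eIF2α, Psat1 (−1.53) and Psph (−0.73) of serine synthesis, the tRNA synthetase Nars (−0.37), and Hspa1b (0.98), Bag3 (0.52), Hspa8 (−0.85) and Hsph1 (−0.91). On equal totals none of these lower genes was called other than Psat1 in Acot12-/- kidneys (−1.01), and the direction turned for Ppib (0.29), Ero1l (0.15), Derl1 (0.12) and Hspa8 (0.07) in Acot12+/+ and for Eif2b1 (0.09) and Nars (0.17) in Acot12-/- kidneys. With each of the 6 libraries left out in turn, the Acot12+/+ call was lost in 6 fits for Eif2ak4, 5 for Ero1l and 4 each for Ppib and Psat1, and the Acot12-/- call in 4 each for Eif2b1 and Hspa1b and 2 for Nars.

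Between genotypes, none of the 142 list genes was called in UUO kidneys or in the interaction. In CL kidneys 7 of 142 were, a share near the 4.48% of all genes called there. Slc3a2, the shared subunit of amino acid transporters and an ATF4 target, measured 36.1 ± 5.80 FPKM in Acot12+/+ and 90.7 ± 23.4 in Acot12-/- CL kidneys (SD, n = 3; log2 difference 1.28, SE 0.22, limma adjusted p = 0.0109). Its change with UUO was 0.54 (adjusted p = 0.0649) in Acot12+/+ and −0.94 (adjusted p = 0.00385, or −0.40 and 0.124 on equal totals) in Acot12-/- kidneys, and the interaction, at −1.48 (SE 0.32), had an adjusted p of 0.0900. Also higher in Acot12-/- CL kidneys were the heme-regulated eIF2α kinase Eif2ak1 (0.51, adjusted p = 0.0458) and Psph of serine synthesis (0.46, adjusted p = 0.0437). Lower were the mTOR inhibitor Ddit4 (−1.29, adjusted p = 0.0145), Kdelr3 (−0.90, adjusted p = 0.0240) and Hsp90aa1 (−0.67, adjusted p = 0.0437). All 7 were also called without Acot12-/- CL replicate 2, a fit that called 2923 of 13243 genes, against 593 with all libraries. None of the 7 was called in a fit of the compared groups alone, which called 1 gene.

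The members differed widely in level per length. Hsp90b1 and Hspa5 were the highest in each group, at group means of 269 to 387 and 181 to 318 FPKM, at percentiles 98 to 98.8 of all gene symbols. Herpud1, at 59.7 to 163, Atf4, at 62.3 to 90.7, Xbp1, at 56.5 to 69.2, Dnajb9, at 28.0 to 45.1, and Ddit3, at 12.3 to 24.1, were intermediate. Asns, at 3.45 to 16, and Trib3, at 0.299 to 3.39, were lower, and Chac1, at 0.145 to 1.43, the lowest. Within a group Hspa5 and Hsp90b1 overlapped in Acot12-/- CL kidneys, as did Xbp1, Atf4 and Dnajb9 in the same group, Herpud1 and Xbp1 in both UUO groups, and Trib3 and Chac1 in both Acot12+/+ groups, so their order there is within the spread of the libraries.

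Across the 12 libraries, which share the UUO and CL contrast, log2(FPKM + 1) of Hspa5 and Hsp90b1 had a Pearson r of 0.81, Trib3 and Asns of 0.91, Atf4 and Asns of 0.81 and Atf4 and Ddit3 of 0.80. Herpud1 and Trib3 had an r of −0.91, and Dnajb9 and Ddit3 of −0.83. The genes most like Hspa5 over the 12 libraries were Senp2 (0.96), Actr6 (0.95) and Zfp180 (0.93), those most like Atf4 were R74862 (0.94), Polr2d (0.92) and S100a10 (0.92), and those most like Xbp1 were Tssk6 (0.89), Rnf145 (0.89) and Wdr74 (0.88). None of these is a member or a list gene. These values are descriptions of 12 points that fall mostly into UUO and CL kidneys.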

How the data were processed

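RNA was isolated with RNAiso Plus, libraries were made with the NEBNext Ultra II Directional kit and sequenced on a NovaSeq instrument, and trimming, mapping and normalization were done by a service provider. The submitters' processing notes name mm10 and edgeR; the aligner is not given in the sources used here. The authors deposited 1 table of FPKM per library. The unit is not named there and was derived from the values. Their low entries are whole multiples of a step inversely proportional to transcript length and to a divisor of the library. At the divisor chosen, 59.6% to 67.1% of low values were within 0.03 fragment of a whole multiple, against a median of 2.9% to 3.8% over the divisors tried. The steps give this divisor and do not show whether it is the sequenced depth. FPKM carry no counts, so no count model was fitted and counting error enters only through the spread between libraries.

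Log2(FPKM + 1) of 12 libraries was fitted with limma 3.58.1 in R 4.3.3 (4 groups in 1 model, eBayes with trend, checked on simulated data) for the 2 contrasts of UUO with CL, the 2 contrasts of genotype and the interaction. Genes needed 1 FPKM in 3 libraries; 58 genes at 0 in a library beside 10 FPKM or more in its group were left out (28 of them otherwise tested). Calls were made at p under 0.05 after Benjamini-Hochberg adjustment over 13243 genes. Whether libraries came from separate mice is not stated beyond their labels, so p measures the spread between these samples. Same-numbered kidneys of a genotype correlated weakly in their deviations (0.13, 0.36 and 0.33 in Acot12+/+, 0.32, 0.19 and 0.32 in Acot12-/-). Different numbers gave −0.36 to 0.14 in Acot12+/+ and −0.18 to −0.07 in Acot12-/-. These values do not establish that the numbers pair kidneys of a mouse, and the labels do not say so. Across genotypes, where no kidneys share a mouse, the same number gave −0.30 to 0.39 and different numbers up to 0.45.

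All 10 members are named, and of each list up to 2 called genes that rose and up to 2 that fell most with UUO in Acot12+/+ kidneys, any list gene called between genotypes, and the 3 genes with the highest correlation to Hspa5, Atf4 and Xbp1. Members and lists were chosen with earlier results of these data known. Fgf21, Pycr1 and Slc7a11 of the lists were too low to test. Promoters are RefSeq, GRCm38.p6, and gene spans GENCODE vM21. Alternatives were a pseudocount of 0.1, no filter, keeping the genes at 0, median-ratio factors, equal totals, no variance trend, only the groups compared, a replicate block and leaving out each library. Some list and marker genes are counted in the totals but are not reported here by name.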

Additional observations from a re-analysis of the deposited data

How the results depend on the processing

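Equal totals changed the direction of the change with UUO in Acot12+/+ kidneys for Hspa5 (0.19), Hsp90b1 (0.22), Eif2s1 (0.18), Dnajb11 (0.12), Erlec1 (0.08) and Vegfa (0.11), in Acot12-/- kidneys for Hsp90b1 (0.27), Xbp1 (0.49) and Iars (0.44), and of the interaction for Atf4 (−0.08). Of all calls 12.4% were then lower in Acot12+/+ kidneys, against 50.3%, and 20.3% in Acot12-/- kidneys, against 50.5%. Of the 9 members tested, 6 passed in Acot12+/+ kidneys, all higher, where 8472 of 13243 genes passed. In Acot12-/- kidneys 5 passed, 4 of them higher, where 7628 genes passed. These shares of members are near those of all genes. Median-ratio factors were 0.976 to 1.02 and kept every member's call.

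With single libraries left out, 3 to 4 members passed with UUO in Acot12+/+ kidneys (3 without CL replicate 1 or 3 or UUO replicate 2 or 3, where Hspa5 and Hsp90b1 were lost), 5 to 7 in Acot12-/- kidneys, 0 in each fit between genotypes in UUO, 0 to 2 in CL (2 without Acot12-/- CL replicate 2) and 0 in each fit of the interaction. Between genotypes in CL, 2923 of all genes passed without Acot12-/- CL replicate 2, against 593 with all libraries. In a fit of the compared groups alone 3 members passed in Acot12-/- kidneys, where Hspa5, Dnajb9 and Ddit3 were lost; 5341 genes passed there, against 7114. That fit called 8578 genes in Acot12+/+ kidneys, Atf4 among them (adjusted p = 0.0189, limma), and 1 between genotypes in CL, against 593; the cause was not tested.

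Leaving out single libraries turned the sign of differences that had not passed: Xbp1 with UUO in Acot12-/- kidneys (−0.23 to 0.24); between genotypes in UUO, Hsp90b1 (−0.12 to 0.05), Herpud1 (−0.12 to 0.10), Xbp1 (−0.09 to 0.0014) and Trib3 (−0.30 to 0.16); in CL, Asns (−0.15 to 0.28) and Xbp1 (−0.07 to 0.40); and in the interaction, Trib3 (−0.02 to 0.45), Atf4 (−0.08 to 0.29), Hspa5 (−0.27 to 0.05) and Xbp1 (−0.44 to 0.04).

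With the replicate block, which assumes that same-numbered kidneys of a genotype are paired, 5 members passed in Acot12+/+ and 7 in Acot12-/- kidneys. Of all 13243 genes, 6754 and 7445 passed. Atf4 (0.43, adjusted p = 0.0227, limma) was added in Acot12-/- kidneys, and no other member's call changed. In the interaction 83 genes passed in place of 14, none a member. Of 14 alternatives for each list gene named as called between genotypes in CL, the call was lost in 8 for Hsp90aa1, 7 each for Eif2ak1 and Psph, 5 for Kdelr3, 4 for Ddit4 and 2 for Slc3a2. Chac1 is limited by its low values, the lowest of which rest on very few fragments.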
